A study of Mus musculus with 2 samples.

Results

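Classical cadherins are the transmembrane adhesion proteins of adherens junctions, and catenins tie them to the actin cytoskeleton. The group described here has 9 of the 18193 genes named on the array: the cadherins Cdh1 (E-cadherin), Cdh2 (N-cadherin), Cdh3 (P-cadherin) and Cdh11 (a type II cadherin of mesenchyme), the catenins Ctnna1 (alpha-catenin), Ctnnb1 (beta-catenin), Ctnnd1 (p120-catenin) and Jup (plakoglobin), and Epcam, an epithelial adhesion molecule that is not a cadherin. They were found as every probe set whose platform annotation gives 1 gene symbol, equal to one of these names, which took 20 of the 45101 probe sets on the array. No further probe set listed a member beside another gene (0 found).

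The samples were embryoid bodies, the free-floating clumps in which stem cells leave pluripotency, formed in hanging drops from the mouse line CGR8 (strain 129), which had been kept without feeder cells in medium with serum and leukemia inhibitory factor. The FGF10 group was differentiation medium plus recombinant FGF10 protein at 100 ng/ml, and the control group was differentiation medium with no agent; both share line, strain and culture and each has 1 array. The labels place both at day 2, whereas the series' design text takes RNA 24 h after adding FGF10 to embryoid bodies that were 2 days old, so the stage is ambiguous. The question was which transcripts differ when FGF10 is present.

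In a classical cadherin the outer domains bind cadherins on the next cell, and the cytoplasmic tail binds p120-catenin near the membrane and either beta-catenin or plakoglobin further along. Alpha-catenin then links that complex to actin. Beta-catenin is also the transcriptional effector of Wnt signalling. In the mouse gastrula, epiblast cells that pass through the primitive streak change from an epithelial to a mesenchymal state, and the classical account of this change is that E-cadherin gives way to N-cadherin.

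Values are MAS5 signals, each a summary of the array's probes in 1 probe set, on a linear scale. A ratio is the log2 signal with FGF10 less the log2 signal in the control, minus 0.034, the median over probe sets that passed a filter on mean signal of 76.35. Signals under 76.35 may not be above background. Probe sets differ in sequence and binding strength, so the level of one gene was never set against that of another, and genes were compared only by their ratios. Neither group was replicated, so no test was made and the spread between cultures is unknown. The only error measured was the technical SD, taken from how far pairs of probe sets for the same gene differ on these arrays, which was 0.27 over 5213 genes, 0.37 in the dimmest of 5 signal groups and 0.18 in the brightest. In bulk embryoid bodies, more cells of one type and more RNA per cell cannot be told apart.

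Of the 9 genes, Cdh11 and Cdh2 passed 1.5-fold upward with FGF10 and 0 passed it downward, while the other 7, Cdh1 and all 4 catenins among them, lay between log2 ratios of -0.29 and 0.29. Over all 11122 measured genes, 5.41% passed 1.5-fold upward and 4.86% downward. Both Cdh11 and Cdh2 also passed 2-fold upward, which 1.32% of all genes did, while 1.29% passed it downward. The members' median was 0.050, against -0.027 for all measured genes.

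**Figure D1:**
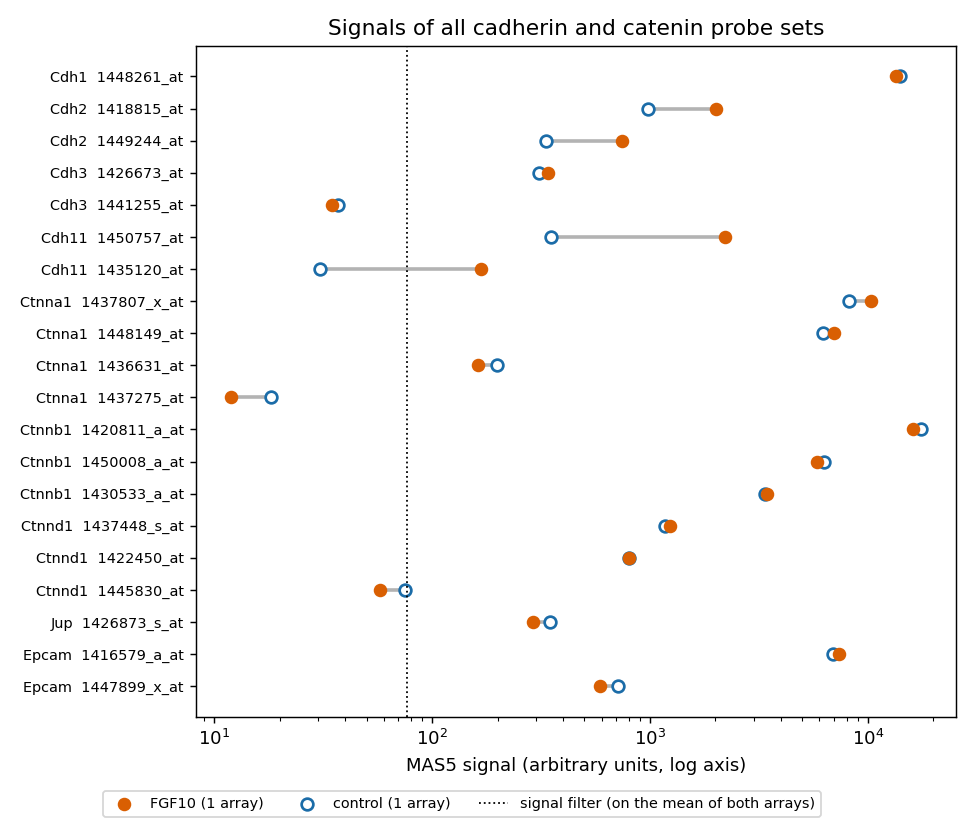
MAS5 signal on a log axis for the 20 probe sets of the 9 genes, with the FGF10 array as filled points, the control array as open points and the signal filter of 76.35 as a dotted line. The filled and open points stand far apart in the 4 probe sets of Cdh2 and Cdh11, with FGF10 to the right. The control point of Cdh11 1435120_at, at 30.5, lies left of the filter line, so the width of that gap is not known.

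Cdh11 had the largest difference in the group. Its brighter probe set, 1450757_at, read 2213.8 on the FGF10 array and 350.8 on the control array, a log2 ratio of 2.62, or 6.16-fold. Cdh11 ranked 10 from the top of the 11122 genes, and was the highest of the 556 genes in its own band of mean signal (1124.7 to 1374). Its other probe set, 1435120_at, read 167.9 with FGF10 and 30.5 in the control, a log2 ratio of 2.43. That control signal lies under 76.35, so the size of this second ratio is not known, and with the control signal raised to 76.35 it was 1.10. This dimmer probe set reached the filter only through its FGF10 signal, so its direction is no separate support for that of the brighter one.

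Cdh2, which neural and mesodermal cells use for adhesion, was the other member past the threshold. Probe set 1418815_at read 2011.9 with FGF10 and 980.3 in the control, a log2 ratio of 1.0, which stands almost exactly at the 2-fold line. Its second probe set, 1449244_at, read 747.2 with FGF10 and 331.9 in the control (1.14). All 4 of these signals were above the filter value. Cdh2 ranked 146 from the top of all genes, and only 3 of the 556 genes in its signal band, Cdh2 included, had a ratio as high, in a band where 14 were at least 1.5-fold higher.

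Cdh1, the cadherin of the epiblast and of embryonic stem cells, read 13424.6 with FGF10 and 14038 in the control on its only probe set, 1448261_at. Its log2 ratio was -0.099, smaller in size than its technical SD of 0.18. The sign of this small value depends on the scaling, being 0.083 after quantile normalization and 0.11 after loess. The brightest genes as a class read lower on the FGF10 array, since the 557 genes of the brightest band (6780.0 to 34195.2) had a median ratio of -0.20, and 159 of them stood at or above Cdh1. In that band only 1 of the 557 genes was at least 1.5-fold higher, and the SD of the ratios was 0.19, against 0.30 in the band of Cdh2. The higher Cdh2 and Cdh11 signals thus stood beside a Cdh1 signal within 1.5-fold of the control, in a band where ratios spread less.

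The ratio of Cdh2 exceeded that of Cdh1 by 1.10 on the log2 scale, or 2.15-fold, and by 1.24 with the second Cdh2 probe set. The technical SD of these differences was 0.28 and 0.35. For Cdh11 the difference from Cdh1 was 2.72, or 6.60-fold, on the brighter probe set (technical SD 0.29) and 2.53 on the dimmer one (0.41), which is 1.20 with the dim control signal raised. Such differences between genes on the same arrays do not depend on centring. Scaling by signal does change them, to 0.91 for Cdh2 and 2.50 for Cdh11 on the brighter probe sets after loess, and the technical SD does not include that shift. The ratio of Cdh11 was in turn 1.62 above that of Cdh2 (technical SD 0.31). Both the Cdh2 and the Cdh11 difference from Cdh1 were larger than the disagreement between probe sets, and how they compare with the spread between cultures was not tested.

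**Figure D2:**
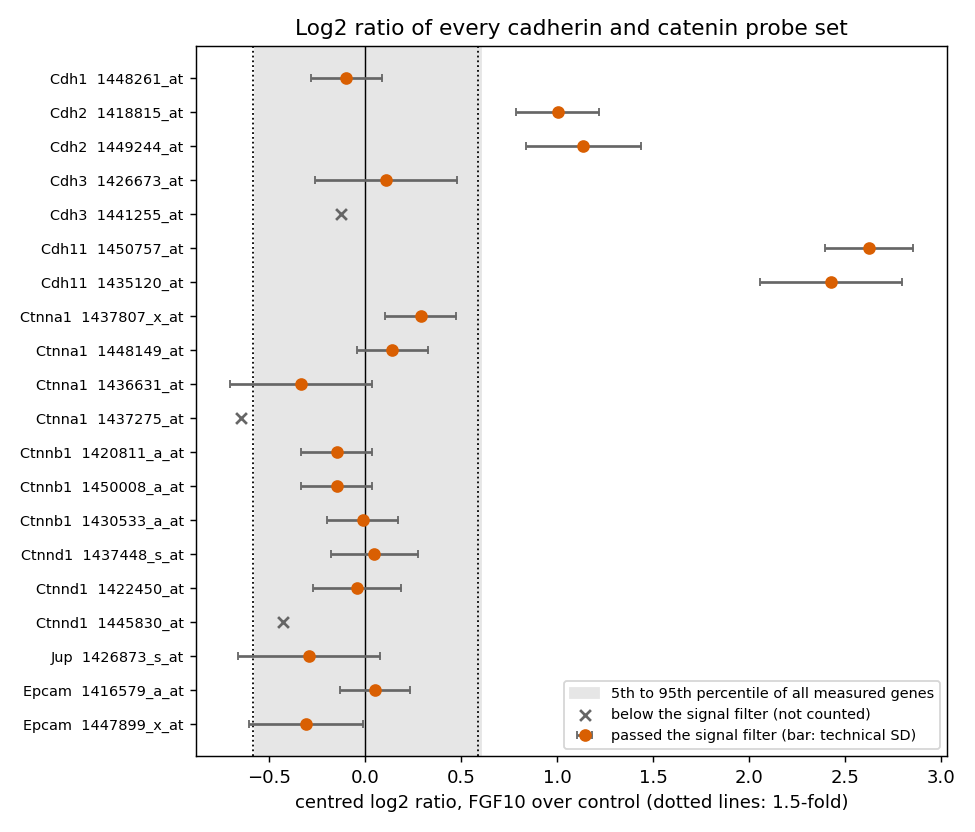
Centred log2 ratio, FGF10 over control, of each of the 20 probe sets, with bars for the technical SD of their signal group, crosses for the 3 probe sets below the filter and dotted lines at 1.5-fold. The 4 probe sets of Cdh2 and Cdh11 lie right of the shaded range that holds the 5th to 95th percentile of all measured genes, and the other 13 that passed the filter lie within 1.5-fold. Of these 4, Cdh11 1435120_at passed the filter only through its FGF10 signal, and is at 1.10 with its dim control signal raised. Its bar does not include that limit.

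Cdh3, a further type I cadherin, is the immediate protein-coding neighbour of Cdh1 in the RefSeq gene table. Its probe set 1426673_at read 342.2 with FGF10 and 310.5 in the control, a log2 ratio of 0.11, and its other one, 1441255_at, read 34.6 with FGF10 and 36.9 in the control and did not pass the filter. The ratio of Cdh3 was 0.20 above that of Cdh1, less than the technical SD of that difference, 0.41. These neighbours therefore had ratios that their error within the arrays does not separate.

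Ctnnb1, both junction component and Wnt effector, was close to level. Its 3 probe sets read 16223.4, 5841.1 and 3437.5 with FGF10, against 17562.1, 6330.7 and 3390.8 in the control, giving log2 ratios of -0.15, -0.15 and -0.015. The brightest turned to 0.088 after quantile normalization and 0.076 after loess, so its direction is not settled. Ctnnd1, which binds the part of the cadherin tail next to the membrane and slows cadherin uptake from the surface, read 1237.7 and 798.8 with FGF10 and 1169.8 and 804.1 in the control on its kept probe sets, ratios of 0.047 and -0.044. A dimmer Ctnnd1 probe set, 1445830_at, read 57.4 with FGF10 and 75.4 in the control and was not counted.

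Ctnna1 was the member whose probe sets disagreed most. Its bright probe sets, 1437807_x_at and 1448149_at, read 10312.9 and 7009 with FGF10 and 8245 and 6213.5 in the control, log2 ratios of 0.29 and 0.14. A dimmer one, 1436631_at, read 161.8 with FGF10 and 199.1 in the control, a ratio of -0.33, and 1437275_at was below the filter, at 11.9 with FGF10 and 18.2 in the control. The kept probe sets of Ctnna1 thus span 0.62 across 0. The brightest was at 0.45 after quantile normalization and 0.45 after loess, still within 1.5-fold. Only 6 of the 557 genes in its bright band had a ratio as high as the 0.29 of Ctnna1, itself included, and 1 of these passed 1.5-fold. That standing rests on 1437807_x_at, and with _x_at and _s_at probe sets dropped Ctnna1 was at 0.14.

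Jup, which replaces beta-catenin in some cadherin complexes and is also part of desmosomes, read 291.4 with FGF10 and 348.5 in the control on its only probe set, 1426873_s_at. Its ratio of -0.29 was the lowest of the 9 genes and was smaller than its technical SD of 0.37. Epcam read 7366.2 with FGF10 and 6949.6 in the control on 1416579_a_at (0.050), and 587.2 with FGF10 and 710.8 in the control on 1447899_x_at (-0.31). The sign of Epcam is therefore not settled by its probe sets. Of the 6 members with more than 1 kept probe set, 4 (Cdh2, Cdh11, Ctnna1 and Ctnnb1) had the same sign on their 2 brightest, Cdh11 with the limit given above, and over all genes with at least 2 such probe sets 65.7% did.

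**Figure D3:**
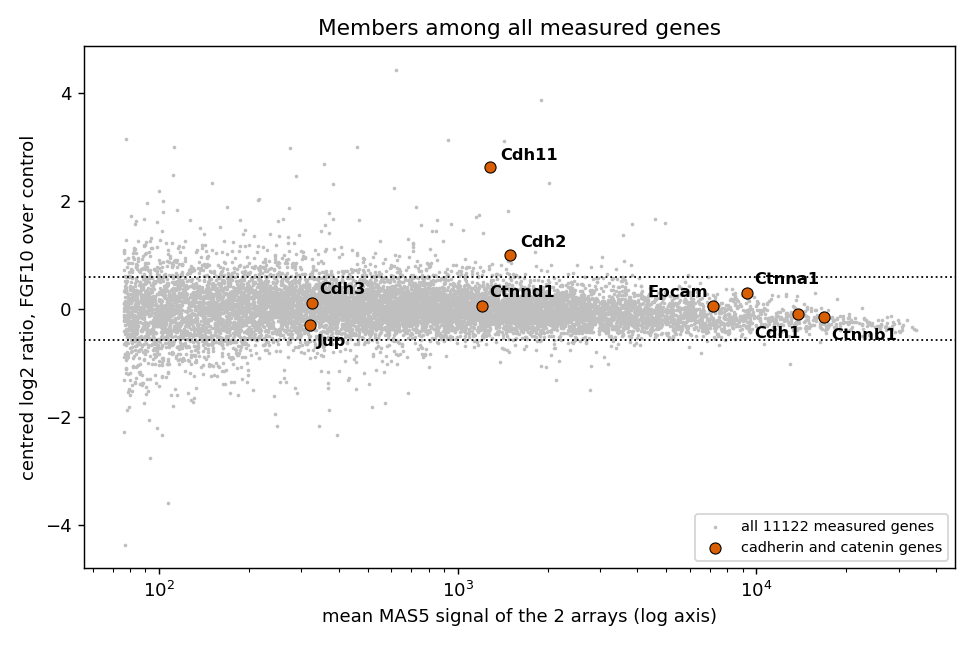
Centred log2 ratio, FGF10 over control, against mean MAS5 signal (log axis) for all 11122 measured genes, with the 9 members marked and dotted lines at 1.5-fold. Cdh11 and Cdh2 stand above the cloud at their signal, and the bright members Cdh1, Ctnnb1 and Epcam lie within it, with Ctnna1 at its upper edge.

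Related genes were read from 9 lists holding 105 genes, of which 70 were measured. Over these 70, 7 passed 1.5-fold upward (10.0%) and 8 downward (11.4%), beside the 5.41% and 4.86% of all genes, with a median of 0.066. These shares were not matched for signal. Genes on both sides, among them Cdh15, Cdh9, Grhl1, Ovol2, Dsc2, Vezt and Ptprj, were read where the technical SD is largest (0.37). Of 14 other classical cadherins 5 were measured, none of them past 1.5-fold upward (0) and 2 past it downward, and their median was -0.46. Cdh15, the cadherin of skeletal muscle, read 123.4 with FGF10 and 254.2 in the control (-1.08), and Cdh9 read 172.9 with FGF10 and 296.2 in the control (-0.81). Cdh4, or R-cadherin, was at 0.46 on its brightest probe set, but at 0.82, past 1.5-fold upward, on its other kept one. Cdh6 was at -0.46, with an FGF10 signal below 76.35, so it reached the filter only through its control signal. Cdh8 and Cdh5, the neighbours of Cdh11 in the gene table, were both below the filter.

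Of 10 desmosomal and atypical cadherins 3 were measured. Dsc2, a desmosomal cadherin, read 274.6 with FGF10 and 168.5 in the control (0.67, and 1.05 on its other probe set), whereas Dsg2 was at 0.13 (its probe sets running down to -0.24) and Cdh13 at -0.34. Among the other catenins and armadillo relatives 7 of 10 were measured and all 7 were within 1.5-fold, with a median of 0.13. The members farthest from 0 there were the desmosomal plakophilin Pkp3 (-0.50), the alpha-catenin relative Ctnnal1 (-0.40), and the p120 relatives Ctnnd2 (0.19) and Arvcf (0.15, with probe sets from -0.073 to 0.35).

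Of 18 partners of the adherens junction 17 were measured. Their median was 0.11, and 2 passed 1.5-fold upward and 0 downward. Vezt, a junction protein, read 181.2 with FGF10 and 85.5 in the control on its brightest probe set (1.05), but its probe sets ran down to -0.21. Ajuba, a LIM protein that binds alpha-catenin, read 3890.2 with FGF10 and 2437.6 in the control (0.64). Plekha7, which binds p120-catenin, was at -0.35, and the actin crosslinker Actn1 at 0.34. In the list of cadherin turnover genes and phosphatases the receptor phosphatase Ptprj (0.65) was the 1 gene of 10 measured that passed 1.5-fold upward, and 0 passed it downward. Ptprm was at -0.41, or -0.32 with its dim FGF10 signal raised, Gipc1 at 0.27 and the sheddase gene Adam10 at 0.078, with Adam10 probe sets from -0.55 to 0.17.

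**Figure D4:**
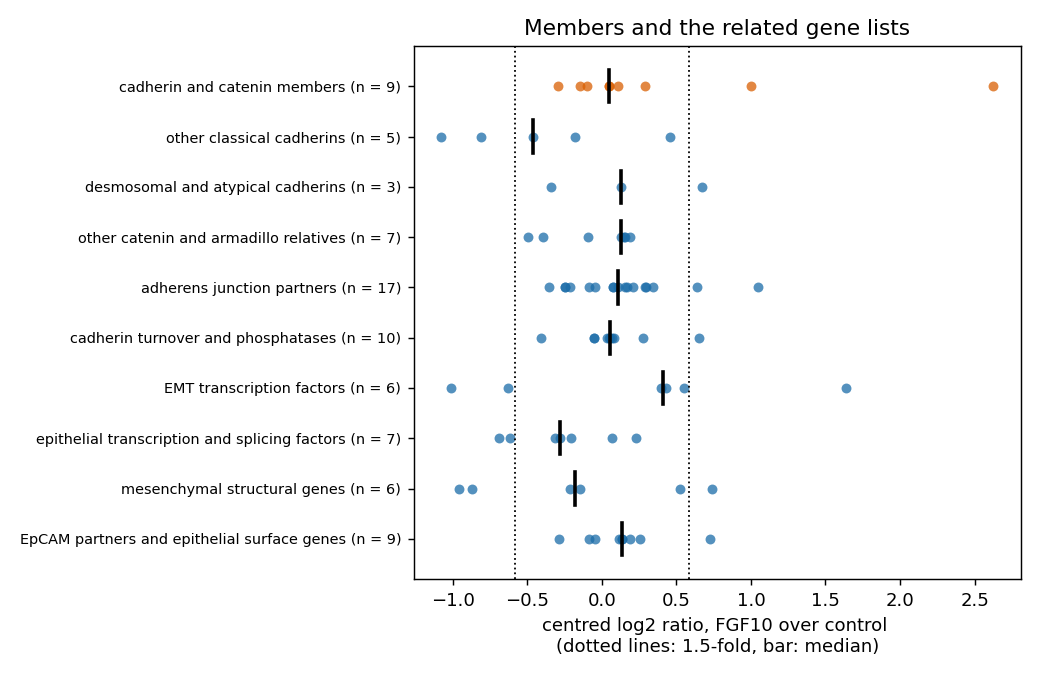
Centred log2 ratio, FGF10 over control, of the 9 members and of each measured gene of the 9 related lists, with a bar at each median and dotted lines at 1.5-fold. Cdh11 is the highest point of the plot, at 2.62, and the next is Snai1, at 1.63.

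Transcription factors of the epithelial to mesenchymal transition were mixed. Of 11 listed, 6 were measured, with a median of 0.41, and 1 passed 1.5-fold upward and 2 downward. Snai1, a repressor known to bind the Cdh1 promoter, read 194 with FGF10 and 61 in the control (1.63), and 1.31 with the dim control signal raised. Snai1 reached the filter only through its FGF10 signal, which favours an upward direction, so that direction is no separate support. Its relative Snai3 read 110.9 with FGF10 and 218.3 in the control (-1.01), and Zeb1 72.4 with FGF10 and 109.3 in the control (-0.63), inside 1.5-fold at -0.55 with the dim FGF10 signal raised. Zeb1 in turn reached the filter only through its control signal, which favours a downward direction. Tcf4 was at 0.55, the highest of its 5 kept probe sets, which ran down to 0.094. Zeb2 was at 0.43, and at 0.85 on its other kept probe set. That other probe set is dimmer, and its control signal lay under 76.35. It reached the filter only through its FGF10 signal, so the size of its ratio is not known and its direction is no separate support. Snai2, Twist1, Twist2, Foxc2 and Prrx1 were below the filter. These factors were all read at signals where the technical SD is largest, apart from Tcf4 and Tcf3 (0.39).

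Of 10 epithelial transcription and splicing factors 7 were measured. Their median was -0.28, with 0 past 1.5-fold upward and 2 downward. Grhl1 read 102.9 with FGF10 and 162.3 in the control (-0.69), and Ovol2, a repressor of mesenchymal genes, read 94 with FGF10 and 140.9 in the control (-0.62). Esrp2, an epithelial splicing factor, was at -0.32 and Klf5 at -0.28, with its other probe set at 0.69. Of 10 EpCAM partners and epithelial surface genes 9 were measured. Their median was 0.13, with 1 past 1.5-fold upward and 0 downward. Krt19, an intermediate filament gene, was that one (0.72), and the tetraspanin Cd9 was at -0.29, the protease inhibitor Spint2 at 0.26 (-0.023 on its other probe set) and the claudin Cldn7, a binding partner of EpCAM, at 0.19.

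Mesenchymal structural genes were mixed. Of 11 listed, 6 were measured, their median was -0.18, and 1 passed 1.5-fold upward and 2 downward. Fn1, or fibronectin, read 1605 with FGF10 and 938 in the control (0.74, and 1.80 on its other probe set), and Vim, or vimentin, read 4215.4 with FGF10 and 2866.4 in the control (0.52, with its probe sets running down to 0.058). The contractile genes Acta2 (-0.96) and Tagln (-0.87) were lower.

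Markers of the cell types that embryoid bodies can hold were set beside these values. They were picked with their values in view, so counts of them are description and no separate support. Over all measured genes 5.41% passed 1.5-fold upward and 4.86% downward. All 8 streak and nascent mesoderm markers, among them Mixl1, Eomes and Mesp1, passed 1.5-fold upward, with signals summed over the measured markers of 16621.7 with FGF10 and 3577 in the control. All 6 epiblast markers were within 1.5-fold, with sums of 50936 with FGF10 and 54816.1 in the control. Such sums are weighted to the brightest probe sets and do not give the direction of most markers. Here Dnmt3b alone read 19016.6 with FGF10 and 26292.9 in the control, while the median ratio of the epiblast markers was 0.13. Of 10 visceral and primitive endoderm markers 6 were lower and 1, Gata6, higher, with sums of 8007.1 with FGF10 and 11678.8 in the control. Of 6 neural markers 2 were measured, Pax6 lower (within 1.5-fold with its dim FGF10 signal raised) and Nes within 1.5-fold (sums of 608.5 with FGF10 and 553.3 in the control), and Sox1 was below the filter. Pax6 reached the filter only through its control signal. Of 7 trophoblast markers 2 were measured, Tfap2c higher and Krt7 within 1.5-fold (499.6 with FGF10 and 240.3 in the control), while Cdx2 and Elf5 were below the filter. Of 7 fibroblast markers 2 were measured, Thy1 lower and Col1a2 within 1.5-fold (368.8 with FGF10 and 506.2 in the control), and Col1a1, Col3a1, Lum, Dcn and Postn were below the filter. Which of these cell types carried the Cdh2 and Cdh11 signal was not tested.

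**Figure D5:**
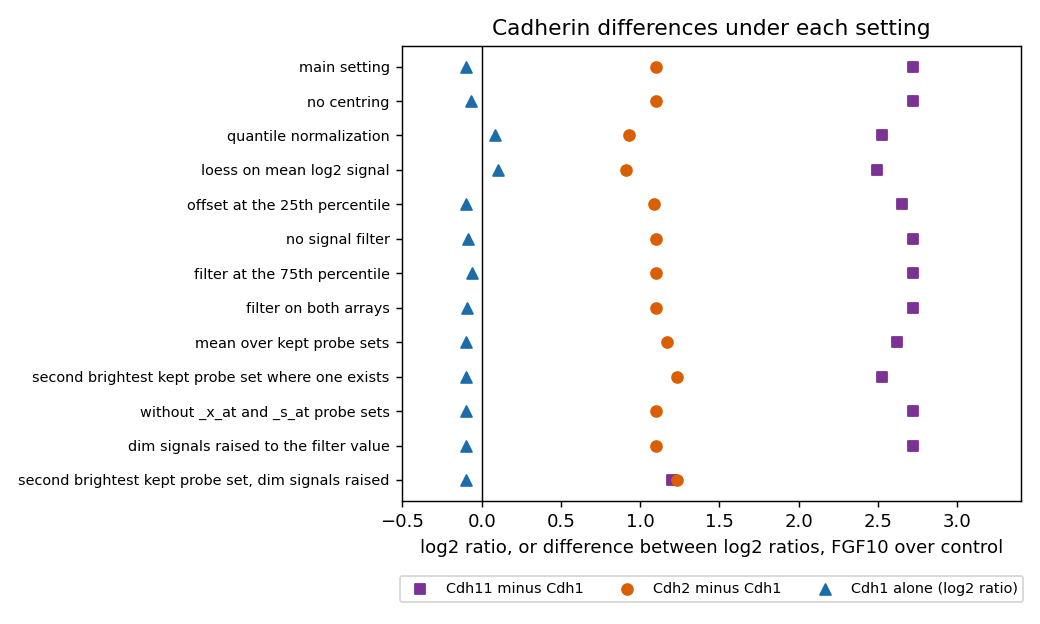
Differences in log2 ratio, Cdh11 minus Cdh1 (squares) and Cdh2 minus Cdh1 (circles), and the log2 ratio of Cdh1 alone (triangles) at the main setting and 12 other settings, in 6 of which neither difference moves. The squares lie between 2.50 and 2.72, except at 1.20 with the second Cdh11 probe set and its dim control signal raised, and the circles lie between 0.91 and 1.24, while Cdh1 alone crosses 0, from -0.099 to 0.11.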

How the data were processed

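The deposited values are array intensities, MAS5 signals on a linear scale with 1 value per probe set, per the submitters' processing notes, which give no version or settings. Each column's mean without its lowest and highest 2% was 500.003, so ratios are relative to the rest of the array. The number of arrays, 2, limits the precision, and 0 sample columns were left unused. Genes were named from the platform annotation. No genome build is named, so no coordinates are given. Detection calls and sequences were not used here.

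From the intensities, log2 ratios were computed with no offset in Python 3.11.15 (numpy 2.4.6, pandas 2.3.3, statsmodels 0.14.6 for loess with a span of 0.3). The 64 control probe sets were left out. The filter kept the 22524 probe sets whose signal, averaged over the arrays, reached the median of 76.35, and a gene took its brightest. All 9 members passed, on 17 of their 20 probe sets. Technical SD is the SD of the difference between a gene's 2 brightest kept probe sets over the square root of 2, in 5 signal groups. Signal bands are 20 equal groups of genes. Differences were counted at 1.5-fold and 2-fold with no test. All members were to be named, plus up to 4 genes per related list with the largest absolute ratio. Outside that rule, Cdh5, Cdh8, Tcf3, Zeb2, the markers and genes below the filter were picked with their values in view. The members and lists were chosen with earlier results of these data known. The procedure was run on simulated arrays with planted ratios and the same noise at every signal. That run does not cover error that varies with signal. Alternatives changed the centring, scaling, offset, filter, choice of probe set, dim signals and threshold.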

Additional observations from a re-analysis of the deposited data

How the results depend on the processing

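Each group has 1 array, so no array could be left out. No paired analysis was possible because each group has 1 sample. Over 13 alternative settings, 167 values were recomputed for the members: 159 moved by less than the technical SD (counts by less than 1.5 times), 8 moved by more and 0 past 1.5-fold changed sign. Part of the 159 could not move, so this count does not measure stability. Cdh1, Cdh3 and Jup have 1 kept probe set, which leaves no other to choose, and both differences from Cdh1 equalled the main setting in 6 of 12 settings. Under every one of the 13 settings, including the 2-fold threshold, 2 member genes were higher and 0 lower, although with an offset Cdh2 stood at 0.99, just inside 2-fold. The log2 ratio of Cdh1 was 0.11 after loess, whose construction removes a trend of ratio with signal. With second brightest probe sets and dim signals raised, a setting chosen after seeing the data, Cdh11 was at 1.10 and its difference from Cdh1 at 1.20, because its second probe set has a dim control signal. The others that moved were Ctnnb1 (0.088 after quantile normalization and 0.076 after loess), Ctnna1 (0.031 with the mean over its probe sets) and Epcam (-0.31 on its second probe set, in both settings that use it). The filter at the 75th percentile left 7 members, without Cdh3 and Jup, and dropping the _x_at and _s_at probe sets left 8, without Jup. The background counts depend on the filter: 602 genes were 1.5-fold higher and 540 lower as reported, 2516 and 2895 without a filter, and 236 and 94 at the 75th percentile.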
